A study of Mus musculus with 96 samples.

Results

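The D-type cyclins (Ccnd1, Ccnd2, Ccnd3), the kinases they activate (Cdk4, Cdk6) and 4 inhibitors of these kinases (Cdkn1a, Cdkn1b, Cdkn2c, Cdkn2d) were followed in 96 single blood stem cells and stem cell precursors of C57BL/6 mouse embryos. The 9 genes were taken by symbol from 19836 genes of the count table, and 8 of them had at least 30 reads over all cells. Cdkn2c had 18 reads and took no part in counts of genes. At embryonic day E11.5 there were 48 precursors of haematopoietic stem cells (pre-HSCs) from the aorta-gonad-mesonephros region (AGM), where such cells arise from the aortic wall, and 16 from the yolk sac. Both were sorted as Ter119-, CD11b-, CD144+, c-kit+ and EPCR+ cells. From the fetal liver there were 16 haematopoietic stem cells (HSCs) of E12.5, sorted as Ter119-, Sca-1+, c-kit+ and EPCR+, and 16 of E14.5, sorted as Ter119-, Sca-1+, c-kit+, CD48- and CD150+. The sort therefore changed with tissue and day, and its part in a difference between groups cannot be told apart from theirs. No genotype other than the strain and no treatment is named for any group.

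D cyclins bind CDK4 or CDK6 early in the cell cycle, and the active kinases phosphorylate the retinoblastoma proteins, which releases E2F transcription factors and lets the cell enter DNA synthesis. INK4 inhibitors, among them the products of Cdkn2c and Cdkn2d, bind CDK4 and CDK6 and keep D cyclins out. Cip/Kip inhibitors, the products of Cdkn1a, Cdkn1b and Cdkn1c, bind cyclin and kinase together. Fetal liver HSCs are known as cycling cells, while adult HSCs mostly rest, and several of these inhibitors are known for restraining adult HSCs.

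Each cell had 250235 to 1926882 reads, and the median number of genes with a read was 5523 in AGM, 5350 in the yolk sac, 4036 in E12.5 HSCs and 4839 in E14.5 HSCs. No 2 cells had identical counts, and the highest Pearson correlation between 2 cells was 0.867. The labels name no embryo or litter, so each group is 1 sample, no test between groups was possible, and intervals cover counting error only. Some cells stood apart from their labels. In the yolk sac group, 8 of 16 cells had no read of Cdh5 (CD144) or of Procr (EPCR), both genes of the sort, and these 8 cells had a median of 4726 genes against 7499 in the other 8. In the E14.5 group, 4 cells (numbers 3, 8, 13 and 16) gave 4.41% to 22% of their reads to globin genes although the sort removed Ter119+ red cells, and the 4 hepatocyte markers measured (Afp, Apoa1, Apoa2, Ttr) were at 0 in all 16 E14.5 cells. All 4 of these markers were also at 0 in 37 of 48 AGM, 8 of 16 yolk sac and 14 of 16 E12.5 cells, and the other cells there had some reads of them. Slamf1 (CD150) was at 0 in AGM, and the endothelial list (Cdh5, Pecam1, Kdr, Cldn5, Tek, Esam) had a median sum per cell of 692 CPM in AGM, 189.2 CPM in the yolk sac, 491 CPM in E12.5 and 180.4 CPM in E14.5 cells. The macrophage list (Adgre1, Cd68, Csf1r, Mrc1) had medians of 0.265, 0, 0.722 and 33.6 CPM and highest cells at 278, 92.6, 4388 and 663 CPM, with Adgre1 at 0 in AGM and E12.5, and Csf1r and Mrc1 at 0 in E14.5. Endothelial and macrophage sums thus move with the groups, and their part in the differences between groups was not tested. E12.5 cell 8 had 1011 genes. The most genes in a cell were 11094 in AGM (cell 36), 10823 in the yolk sac (cell 1), 10509 in E12.5 (cell 1) and 6106 in E14.5 (cell 4).

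Levels are given as CPM, the reads of a gene scaled to the same total in every cell, either per cell or pooled over the cells of a group. Cdk4 led the set in every group, and Ccnd2 and Ccnd3 followed. Of the 4 inhibitors of the set, Cdkn2d had most reads outside yolk sac, and Cdkn1a had reads mainly at E11.5. Per kilobase of exon, pooled AGM levels ran from 502 CPM for Cdk4 through 61.5 for Ccnd2, 57.9 for Cdkn2d, 47.1 for Ccnd3, 12.8 for Cdkn1a, 3.24 for Ccnd1 and 2.09 for Cdk6 to 0.0146 for Cdkn1b. With the longest coding transcript in place of all exons, Ccnd3 came to 195.4 CPM per kilobase in AGM and ranked 2 after Cdk4 in all 4 groups, so the order of Ccnd2, Ccnd3 and Cdkn2d depends on the length used.

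**Figure D1:**
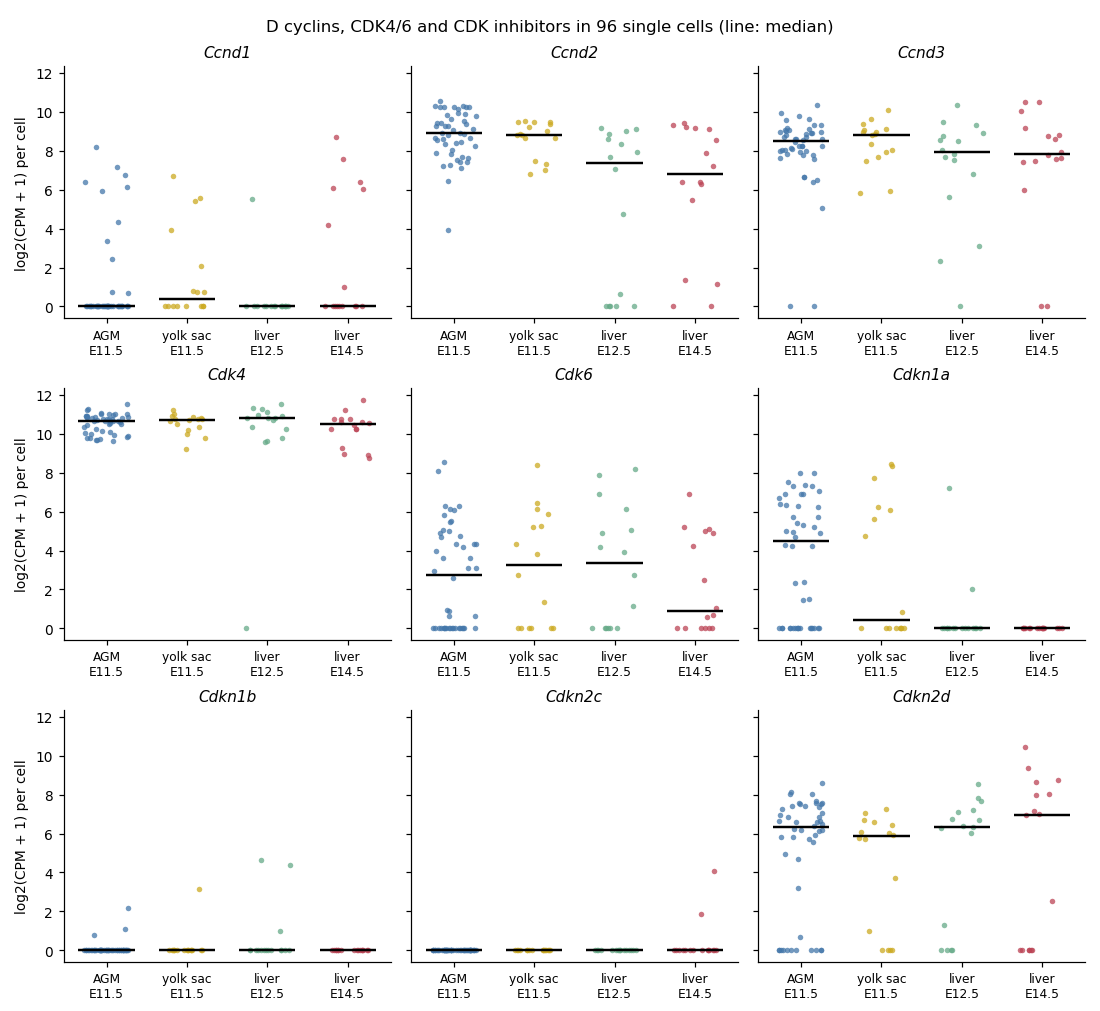
Each point is 1 cell, the y axis is log2(CPM + 1), the x axis gives the 4 groups (48, 16, 16 and 16 cells) and the line is the median. Cdk4 sits high in all groups, with 1 E12.5 cell at 0, Ccnd2 reaches 0 only in liver cells, and Cdkn1a is at 0 in all 16 E14.5 HSCs.

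Among the D cyclins, Ccnd2 (ENSMUSG00000000184.12, chr6:127125162-127152193 in mm10, minus strand) had reads in 48 of 48 AGM and 16 of 16 yolk sac cells but in 11 of 16 E12.5 cells (68.8%, exact 95% interval 41.3% to 89.0%) and 14 of 16 E14.5 HSCs (87.5%, 61.7% to 98.4%). Its lowest, median and highest levels per cell were 14.3, 483 and 1532 CPM in AGM and 109, 456 and 737 CPM in the yolk sac. They were 0, 169.2 and 585 CPM in E12.5 and 0, 118 and 700 CPM in E14.5 cells. The best liver cells thus lay near the AGM median, while the lowest had no read, and the groups overlapped. Pooled Ccnd2 was 578 CPM in AGM (exact 95% Poisson interval 572 to 584), 476 in the yolk sac (467 to 485), 231.04 in E12.5 (224.3 to 238) and 252 in E14.5 (245 to 258). The log2 ratio of pooled CPM, after 1 CPM was added, was -1.32 for E12.5 over AGM and -1.20 for E14.5 over AGM, and with any 1 cell left out it ranged from -1.56 to -1.17 and from -1.44 to -1.06. These comparisons share the AGM cells.

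The E12.5 cells without a Ccnd2 read were numbers 5, 6, 7, 8 and 15. Apart from cell 8, they held 924728 to 1221925 reads each and 784.8 to 2438 CPM of Cdk4. After every cell's reads were thinned to 690000, a step that dropped 5 AGM, 2 E12.5 and 2 E14.5 HSCs, Ccnd2 had reads in 9 of 14 E12.5 and 12 of 14 E14.5 HSCs and in 43 of 43 AGM cells. At this equal depth the median number of genes detected was still 5295 in AGM and 4170 in E12.5 cells, and the part of this was not tested.

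Ccnd3 (ENSMUSG00000034165.16, chr17:47505051-47599691, plus strand), the D cyclin known for its role in lymphoid and erythroid cells, was spread more evenly. Reads were found in 46 of 48 AGM cells, 16 of 16 from the yolk sac, 15 of 16 E12.5 HSCs and 14 of 16 E14.5 HSCs. Its lowest, median and highest levels were 0, 360 and 1289 CPM in AGM, 55.5, 455 and 1076 CPM in the yolk sac, 0, 243 and 1288 CPM in E12.5, and 0, 230.6 and 1481 CPM in E14.5 cells. Medians were lower in the livers, but the ranges nearly coincided. Pooled Ccnd3 was 413 CPM in AGM, 453 in the yolk sac, 323 in E12.5 and 407 in E14.5 cells. The E14.5 value turned on the globin-rich cells: cells 3, 8 and 13 had 1481, 1479 and 1067 CPM, above every other E14.5 cell, and cell 16 had 245 CPM. Without these 4 cells pooled Ccnd3 was 229.5 CPM, and the log2 ratio over AGM moved from -0.02 to -0.85.

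Ccnd1 (ENSMUSG00000070348.5, chr7:144929931-144939925, minus strand), the D cyclin most widely used outside blood, was the sparse one. It had reads in 11 of 48 AGM cells (22.9%, 12.0% to 37.3%), 8 of 16 from the yolk sac (50%, 24.7% to 75.3%), 1 of 16 E12.5 cells (6.25%, 0.158% to 30.2%) and 7 of 16 E14.5 HSCs (43.8%, 19.8% to 70.1%). The highest cell held 296 CPM in AGM, 102 in the yolk sac, 45 in E12.5 and 423 in E14.5, and the medians were 0 except for 0.321 CPM in the yolk sac. Pooled levels were 15.3 CPM in AGM, 15.8 in the yolk sac, 2.89 in E12.5 and 38.6 in E14.5, each carried by a few cells. All 55 E12.5 reads came from cell 7. The log2 ratio of 1.28 for E14.5 over AGM fell under a 2-fold difference without E14.5 cell 2 (0.76) or cell 13 (0.87). It was 0.90 without the 4 globin-rich cells, of which 3 had Ccnd1 reads, against 4 of the 12 others. In the yolk sac, 6 of the 8 cells with a Cdh5 or Procr read held 350 of the 352 Ccnd1 reads, and without the other 8 cells pooled Ccnd1 was 27.7 CPM. Of the exon bases of Ccnd1, 1100 (23.4%) overlap LTO1 on the other strand, and the strand setting of the counting is not given in the sources used here, so reads of such overlaps cannot be assigned.

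The median share of Ccnd2 among D cyclin reads was higher in the E11.5 groups than in the livers, with overlap between cells. Ccnd2 held a median of 59.5% of a cell's D cyclin reads in AGM and 54.9% in the yolk sac, against 35.9% in E12.5 and 24% in E14.5 cells. Ccnd3 held 40.5%, 44.4%, 64.1% and 75.7% in the same order. All 4 globin-rich E14.5 cells had 0% to 24% Ccnd2, and without them the E14.5 medians were 40.2% for Ccnd2 and 41% for Ccnd3 (11 cells), so that E14.5 no longer lay below E12.5. Without cell 8 the E12.5 medians were 38.9% and 61.1%, and the 8 yolk sac cells with a Cdh5 or Procr read had 50.2% and 47%. Ccnd2 gave over 50% of these reads in 31 of 48 AGM cells, 9 of 16 from the yolk sac, 3 of 15 E12.5 HSCs and 4 of 15 E14.5 HSCs. The denominators leave out E12.5 cell 5 and E14.5 cell 9, which had no D cyclin read and yet held 2438 and 1204 CPM of Cdk4. Both of those cells had Mki67 reads. The sum of the D cyclins had a median of 961 CPM in AGM, 851 in the yolk sac, 471 in E12.5 and 659 in E14.5 cells. Without the cells that stand apart the median sum was 994 CPM in the yolk sac, above AGM, 502 in E12.5 and 579 in E14.5. Ccnd3 without Ccnd2 was found in 0 AGM, 0 yolk sac, 4 E12.5 and 1 E14.5 HSCs, and all 3 D cyclins in 10, 8, 0 and 5 cells.

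**Figure D2:**
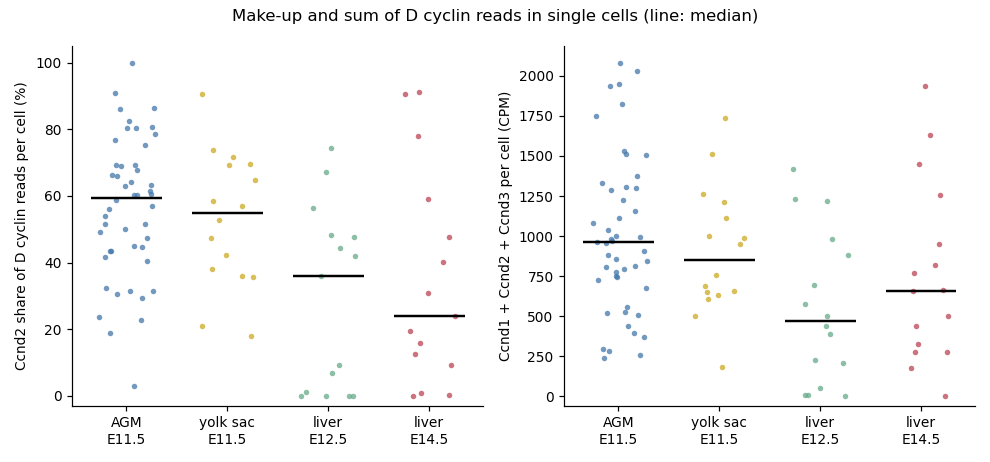
The left panel gives the percent of a cell's D cyclin reads that came from Ccnd2, and the right panel the summed CPM of Ccnd1, Ccnd2 and Ccnd3, by group. Points are cells and lines are medians, which run 59.5%, 54.9%, 35.9% and 24% on the left, with wide overlap between groups. The last median is 40.2% without the 4 globin-rich E14.5 cells.

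Cdk4 (ENSMUSG00000006728.12, chr10:127063534-127067920, plus strand), the kinase partner of the D cyclins, had similar levels in the 4 groups. It had reads in every cell but E12.5 cell 8. Its lowest, median and highest levels were 803, 1626 and 2975 CPM in AGM, 605, 1688 and 2388 CPM in the yolk sac, 0, 1799 and 3010 CPM in E12.5, and 433, 1467 and 3439 CPM in E14.5 cells. The groups overlapped over almost their whole range. Pooled levels were 1632, 1586, 1769 and 1513 CPM, and the log2 ratios over AGM were -0.04 for yolk sac, 0.12 for E12.5 and -0.11 for E14.5. The sign for yolk sac turned under median-of-ratios scaling (0.09) and without the 8 cells that lack Cdh5 and Procr reads (0.09). In E14.5 liver, 3 of the 4 lowest cells were globin-rich (433, 492 and 614 CPM), and without all 4 globin-rich cells pooled Cdk4 was 1700.2 CPM. Of the exon bases, 641 (19.7%) overlap Tspan31 on the other strand.

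The start of Cdk4 is shown because the gene is read in nearly every cell and because Myc, a known activator of Cdk4, binds the letters CACGTG. The RefSeq window of GRCm38.p6 from 250 bases before to 50 bases after the start (chr10:127063285-127063584, plus strand) follows, with CACGTG in capitals.
Cdk4: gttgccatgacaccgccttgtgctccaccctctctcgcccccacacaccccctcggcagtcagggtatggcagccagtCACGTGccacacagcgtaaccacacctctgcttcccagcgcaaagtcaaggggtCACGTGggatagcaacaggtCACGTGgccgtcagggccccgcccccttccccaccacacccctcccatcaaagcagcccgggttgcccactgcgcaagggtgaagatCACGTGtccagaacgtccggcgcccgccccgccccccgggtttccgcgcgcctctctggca
It holds 4 matches to CACGTG, which reads the same on both strands. Of 32851 windows of 300 bases, 7.15% hold at least 1 match and 8 windows (0.0244%) at least 4. Windows were matched for 7 of the 9 genes (10 windows), not for Ccnd1 and Ccnd2, and Cdk6 and 1 of the windows of Cdkn2c hold 1 match each. Pooled Myc was 162.2 CPM in AGM, 159.5 in the yolk sac, 195.03 in E12.5 and 119 in E14.5 cells. A match describes the letters only.

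Cdk6 (ENSMUSG00000040274.11, chr5:3341485-3531008, plus strand), the second kinase and a known regulator of HSC exit from rest, was read in a similar share of every group: 29 of 48 AGM cells (60.4%, 45.3% to 74.2%) and 10 of 16 cells (62.5%, 35.4% to 84.8%) in each of the other groups. After thinning the counts were 21 of 43, 10 of 16, 9 of 14 and 8 of 14. Median levels were 5.79 CPM in AGM, 9.31 in the yolk sac, 9.90 in E12.5 and 0.839 in E14.5 cells, and the highest cells held 374, 338, 295 and 121 CPM. Single cells carried much of the pooled level: AGM cell 47 held 31% of its group's Cdk6 reads, yolk sac cell 10 44.2%, E12.5 cell 5 33.9% and E14.5 cell 15 47.2%. Pooled levels were 29.2, 40.1, 43.4 and 18.2 CPM. The log2 ratio of E14.5 over E12.5 was -1.21, and it was -0.72 without E12.5 cell 5, -0.74 without E12.5 cell 16, whereas leaving out E14.5 cell 15 gave -1.97.

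Cdkn1a (ENSMUSG00000023067.13, chr17:29090976-29100727, plus strand), the Cip/Kip inhibitor induced by p53, was read in E11.5 cells and almost not at all in the liver. It had reads in 31 of 48 AGM cells (64.6%, 49.5% to 77.8%), 8 of 16 from the yolk sac (50%, 24.7% to 75.3%), 2 of 16 E12.5 cells (interval 1.55% to 38.3%) and 0 of 16 E14.5 HSCs, where the exact interval reaches 20.6% and a floor of 3 cells is 18.8%. The AGM cells ranged from 0 to 250 CPM with a median of 21.7, and the yolk sac cells from 0 to 347 CPM with a median of 0.401. E12.5 cell 14 had 149.98 CPM, cell 1 had 3.0 CPM, and the other 14 cells had none. Every E14.5 cell was thus below 31 of the AGM cells, and the 17 other AGM cells were at 0 like them.

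Pooled Cdkn1a was 45.6 CPM in AGM (43.9 to 47.3), 76.8 in the yolk sac (73.2 to 80.5), 12.1 in E12.5 (10.6 to 13.7) and 0 in E14.5. The AGM level was 313-fold a floor of 3 reads over the E14.5 group. That floor covers counting error of reads only. With a share interval that reaches 20.6% of E14.5 cells, it sets no lower bound on the difference. The log2 ratio of E12.5 over AGM was -1.83, and -5.31 without cell 14, since that cell held 98.7% of the group's reads and left 0.171 CPM. Without cell 14 the log2 ratio of E14.5 over E12.5 was -0.23 in place of -3.71. Both of these, with E14.5 at 0 reads, depend on the 1 CPM added. After thinning, Cdkn1a had reads in 26 of 43 AGM cells, 7 of 16 from the yolk sac, 2 of 14 E12.5 HSCs and 0 of 14 E14.5 HSCs. Within the yolk sac, 7 of the 8 cells with a Cdh5 or Procr read had Cdkn1a, and 1 of the other 8 (cell 5, 325 CPM). The first 8 also had more genes detected, as given above, and the part of this was not tested.

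**Figure D3:**
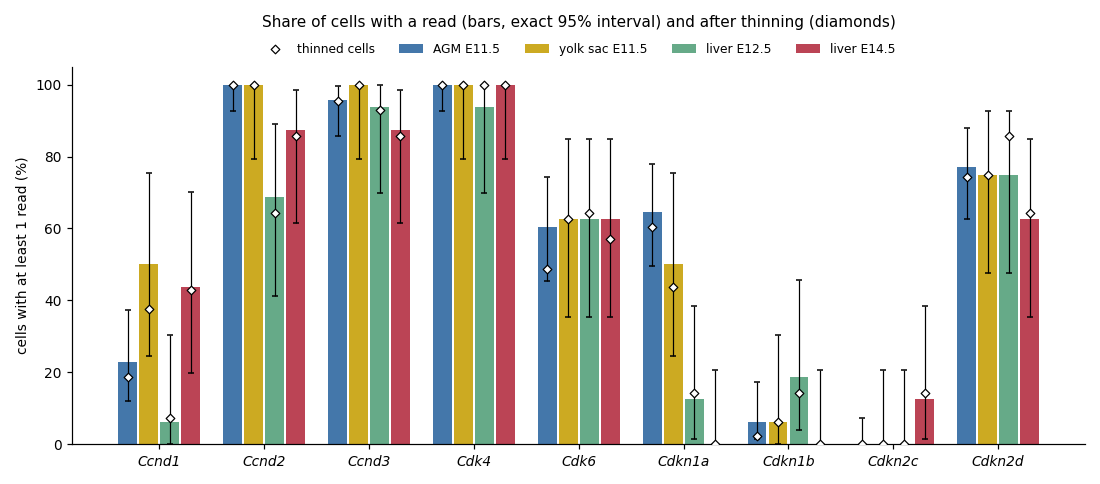
Bars give the percent of cells with at least 1 read of each gene in the 4 groups, with exact 95% binomial intervals, and diamonds the percent after thinning to 690000 reads. Cdkn1a has reads in 31 of 48, 8 of 16, 2 of 16 and 0 of 16 cells, while Cdk6 stays between 60.4% and 62.5%.

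Cdkn1a is the best known target of p53, which binds elements that often hold the letters CATG, and the window at its upstream start is shown for that reason. It is the RefSeq window of GRCm38.p6 at chr17:29090729-29091028, plus strand, with ACATGT in capitals.
Cdkn1a: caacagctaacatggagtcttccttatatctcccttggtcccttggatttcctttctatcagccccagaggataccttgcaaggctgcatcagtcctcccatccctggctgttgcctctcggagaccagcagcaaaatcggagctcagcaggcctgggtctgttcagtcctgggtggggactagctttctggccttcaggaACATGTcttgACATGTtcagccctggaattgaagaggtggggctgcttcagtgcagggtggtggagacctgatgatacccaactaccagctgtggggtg
It holds 2 matches to ACATGT, which reads the same on both strands, and 108 of 32851 windows (0.329%) hold at least 2. None of the other windows of the set, including the second one of Cdkn1a, holds a match. Trp53 RNA was pooled at 404 CPM in AGM, 497 in the yolk sac, 525 in E12.5 and 335 in E14.5 cells. Of 8 other p53 targets (Mdm2, Ccng1, Bax, Bbc3, Trp53inp1, Phlda3, Zmat3, Sesn2), 2 were at least 2-fold higher (Ccng1, Zmat3) and 2 lower (Mdm2, Trp53inp1) in E14.5 than in AGM cells, where 14.3% of all genes were higher and 25.2% lower. Without the globin-rich cells, 2 were higher (Ccng1, Zmat3) and 2 lower (Mdm2, Sesn2), where 2141 of 15239 genes were higher and 4173 lower. Mdm2, which marks p53 for degradation, was pooled at 69.9 CPM in AGM and 19.6 CPM in E14.5, and Ccng1 at 14 and 37.2 CPM. Bax, a promoter of cell death, was at 232.6 and 203.01 CPM. The list thus did not move one way. The activity of the p53 protein was not measured, and its part in the Cdkn1a levels was not tested.

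Cdkn1b (ENSMUSG00000003031.14, chr6:134920401-134925513, plus strand), the Cip/Kip inhibitor of resting cells, had few reads. There were 4 reads in 3 AGM cells, 15 reads in the yolk sac cell 1, 61 reads in 3 E12.5 cells and 0 reads in E14.5 cells. E12.5 cells 2 and 6 had 20.1 and 23.8 CPM, and cell 1 had 1.00 CPM. Pooled Cdkn1b was 3.20 CPM in E12.5 (2.45 to 4.11) and 0.0664 CPM in AGM (0.0181 to 0.170), a log2 ratio of 1.98 and of 1.13 without cell 2. No cell of the E14.5 group had a read of Cdkn1a or Cdkn1b. Cdkn1c, the third Cip/Kip inhibitor, by contrast had reads in 47 of 48 AGM cells, 12 of 16 from the yolk sac, 10 of 16 E12.5 HSCs and 12 of 16 E14.5 HSCs. It was pooled at 437 CPM in AGM (432 to 442), 106 in the yolk sac (102 to 110), 93.7 in E12.5 (89.4 to 98.1) and 104 in E14.5 (99.4 to 108).

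Of the INK4 inhibitors, Cdkn2d (ENSMUSG00000096472.2, chr9:21288410-21291407, minus strand) had reads in 37 of 48 AGM cells (77.1%), 12 of 16 from the yolk sac (75%), 12 of 16 E12.5 HSCs (75%) and 10 of 16 E14.5 HSCs (62.5%). Its median levels were 78.7, 57.4, 80.0 and 125 CPM, and the highest cells held 385, 151.7, 371 and 1383 CPM. The E14.5 group was the most uneven, with 6 cells at 0 and 3 of the 4 globin-rich cells at the top (cell 16 with 1383, cell 8 with 651 and cell 3 with 430 CPM, while cell 13 had 0). Pooled Cdkn2d was 91.2 CPM in AGM (88.8 to 93.6), 60.0 in the yolk sac (56.9 to 63.3), 110 in E12.5 (106 to 115) and 218.3 in E14.5 (211.97 to 224.8). Without the globin-rich cells the E14.5 value was 119 CPM, and the log2 ratio over AGM moved from 1.25 to 0.38.

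Cdkn2c (ENSMUSG00000028551.14, chr4:109660876-109667189, minus strand), known for limiting HSC divisions in the adult, had all of its 18 reads in E14.5 cells 3 (15 reads, 16 CPM) and 8 (2.66 CPM). Both were globin-rich. The floor of 3 reads is 0.0498 CPM for the AGM group, 0.134 CPM for yolk sac and 0.157 CPM for E12.5, so pooled levels under these would not have been seen. Cdkn2a and Cdkn2b, the other INK4 genes, were not analysed here. A cell with none of the 4 inhibitors of the set was found 6 times among 48 AGM cells, 2 times among 16 yolk sac cells, 4 times among 16 E12.5 and 6 times among 16 E14.5 HSCs (37.5%), with intervals of 4.73% to 25.2%, 1.55% to 38.3%, 7.27% to 52.4% and 15.2% to 64.6%.

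**Figure D4:**
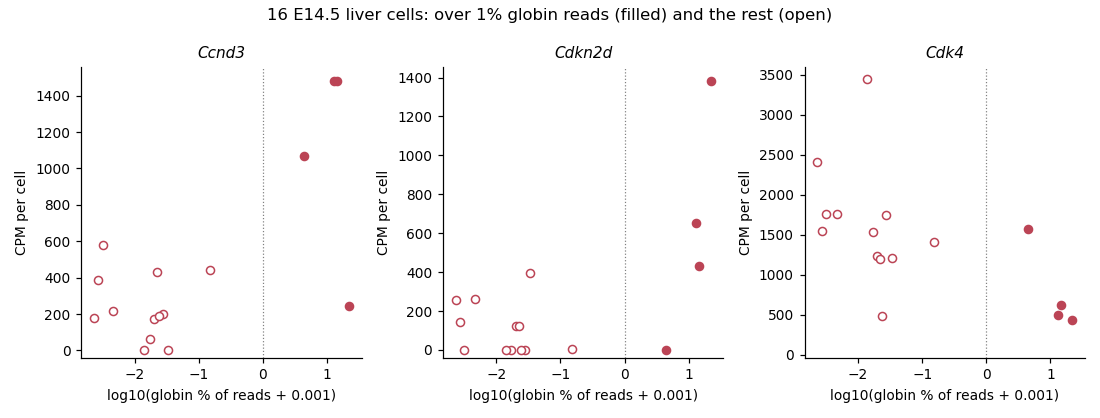
For the 16 E14.5 HSCs, the x axis is log10 of the percent of reads from globin genes (0.001 added), and the y axis is CPM of Ccnd3, Cdkn2d and Cdk4. The 4 filled cells have over 1% globin reads (dotted line), and 3 of them are the highest for Ccnd3 and 3 the highest for Cdkn2d.

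Read against all genes, the set did not stand out by how many members differed. A gene was called when pooled CPM differed at least 2-fold and the mean of the cells' log2(CPM + 1) had the same sign. For yolk sac over AGM, 0 of 8 members were called, where 29% of 15239 genes were (8.57% higher, 20.4% lower). For E12.5 over AGM, 4 of 8 were called (Ccnd1, Ccnd2 and Cdkn1a lower, Cdkn1b higher), where 40.2% of all genes were (14.3% higher, 25.9% lower). For E14.5 over AGM, 3 of 8 were called (Ccnd1 higher, Ccnd2 and Cdkn1a lower), where 39.5% of all genes were (14.3% higher, 25.2% lower). For E14.5 over E12.5, 4 of 8 were called (Ccnd1 higher, Cdk6, Cdkn1a and Cdkn1b lower), where 35.9% of all genes were (18.2% higher, 17.7% lower). The median log2 ratio of the 8 members was 0.09, -0.12, -0.10 and -0.05 in these comparisons, and that of all genes was -0.20, -0.20, -0.23 and 0. With Cdkn1a and Cdkn1b, at 0 reads in E14.5, set to the floor of 3 reads, the third median was -0.06 and the last stayed at -0.05. Member counts near such shares say nothing particular of the set.

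The partners downstream were described by the same rule. Of 8 partners of the step into DNA synthesis (Ccne1, Ccne2, Ccna2, Cdk2, Cdc25a, Cdk7, Ccnh, Mnat1), 4 were higher in E14.5 than in E12.5 cells (Ccne1, Ccne2, Cdk2, Cdc25a) and 0 lower, where 18.2% of all genes were higher and 17.7% lower. The median log2 ratio was 1.00 against 0 for all genes. Without the globin-rich E14.5 cells and E12.5 cell 8, Ccne2 and Cdc25a were higher, 0 were lower and the median was 0.57. Ccne1, a partner of CDK2, was at 57.3 CPM in E12.5, where cell 14 held 96.5% of its reads, and at 132 CPM in E14.5 (85.03 without the globin-rich cells). Ccne2, a second such partner, was pooled at 15.4 CPM in AGM, 23 in the yolk sac, 0.262 in E12.5 and 23.5 in E14.5 cells, and 10.4 in E14.5 without the globin-rich cells. Cdc25a, the phosphatase that activates CDK2, was at 26.3, 25, 1.05 and 23.5 CPM, and Cdk2 at 151.7, 207.9, 89.8 and 198.98 CPM. Of 10 E2F and DP genes, 4 were higher (E2f1, E2f2, E2f7, E2f8) and 2 lower (E2f3, E2f5) in E14.5 than in E12.5 cells. Globin-rich cell 8 held 93% of the E14.5 reads of E2f8, which was at 0.246 CPM without the globin-rich cells against 1.52 CPM in E12.5. Without the cells that stand apart, 4 were higher (E2f1, E2f2, E2f7, Tfdp1) and 2 lower (E2f3, E2f8). E2f1 had 46, 52.9, 6.88 and 40 CPM across the 4 groups, so E12.5 was the low group, as it was for Ccnd1. Rb1, the retinoblastoma gene, had 7.05, 1.88, 0 and 10.6 CPM, and Rbl1 12.8, 14.9, 17.4 and 18.8 CPM. Of 6 turnover genes, Skp2, which marks the Cdkn1b product for degradation, was at 52.3, 30.1, 9.60 and 53.6 CPM. E12.5 cells had the fewest genes detected of the 4 groups, and the part of this was not tested.

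Cells were next split by a read of Mki67, a marker of cycling cells, which 33 of 48 AGM cells, 13 of 16 from the yolk sac, 7 of 16 E12.5 HSCs and 9 of 16 E14.5 HSCs had. Top2a, a second marker that was not used for the split, was pooled at 207.6 CPM with and 18.3 CPM without an Mki67 read in AGM, at 320 and 43.04 CPM in E12.5 and at 228.7 and 22.2 CPM in E14.5. In the yolk sac it was 203.6 and 197.5 CPM, so there Top2a did not separate the 2 kinds of cell by pooled level, and 1 of the 3 cells without Mki67 held all reads of the latter. Cells with an Mki67 read had more genes detected: the medians were 6070 against 4907 in AGM, 5776 against 3682 in the yolk sac, 5477 against 3612 in E12.5 and 5579 against 4097 in E14.5. Over all genes tested, the share of cells with a read differed by a median of 7.88 percentage points in AGM, 15.4 in the yolk sac, 14.3 in E12.5 and 0 in E14.5 between the 2 kinds of cell. The yolk sac had 3 cells without Mki67, under the 4 needed on each side, so only its values are given. Pcna, another marker of cycling cells, was called neither higher nor lower with an Mki67 read in AGM, E12.5 or E14.5. Without E12.5 cell 8, Pcna was called lower in the E12.5 cells with an Mki67 read. The markers of cycling cells thus did not all follow the split.

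Ccnd3 had a lower median in cells with an Mki67 read in all 4 groups, with only 3 cells without such a read in the yolk sac. Its median was 305 CPM with and 473 CPM without in AGM, 446 and 498 CPM in the yolk sac, 112 and 260 CPM in E12.5, and 216.1 and 389 CPM in E14.5 cells. Pooled levels ran the same way, with 345 against 563 CPM, 432 against 560 CPM, 200.9 against 468 CPM and 381 against 445 CPM. The cells of the 2 kinds overlapped in every group, and without E14.5 cell 8 the pooled log2 ratio in E14.5 turned from -0.22 to 0.43. In E12.5 it was -1.22, and -0.99 without cell 3 and -0.90 without cell 16. Ccnd2 had medians of 407 and 625 CPM in AGM, 457 and 455 CPM in the yolk sac, 26.1 and 243 CPM in E12.5 and 77.8 and 559 CPM in E14.5 cells, so it was lower with Mki67 in 3 groups and level in the yolk sac. In E14.5 the 7 cells without Mki67 all had a Ccnd2 read, and 2 of the 9 with Mki67 had none. Its pooled log2 ratio there was -1.15 (167.97 against 374 CPM), and without any 1 of cells 1, 4, 9, 10, 13 or 15 it was between -0.99 and -0.91. More genes were detected in cells with an Mki67 read, and the part of this in the Ccnd3 and Ccnd2 levels was not tested.

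Cdk6 ran the other way in how often it was read. It had reads in 23 of 33 AGM cells with Mki67 and 6 of 15 without (69.7% and 40%), in 9 of 13 and 1 of 3 yolk sac cells, in 7 of 7 and 3 of 9 E12.5 cells (100% and 33.3%), and in 8 of 9 and 2 of 7 E14.5 HSCs (88.9% and 28.6%). The difference of 29.7 points in AGM, 66.7 in E12.5 and 60.3 in E14.5 was above the median over all genes given before. Those medians include genes read in no cell or in every cell of a group, which cannot differ. They therefore do not set Cdk6 apart from genes read about as often. After thinning the Cdk6 counts were 17 of 29 and 4 of 14, 9 of 13 and 1 of 3, 7 of 7 and 2 of 7, and 6 of 9 and 2 of 5, which left 26.7 points in E14.5. Pooled Cdk6 did not follow these shares: it was 29.7 and 28.1 CPM in AGM, 47.4 and 38.7 CPM in E12.5 and 11.9 and 27.4 CPM in E14.5, and the highest cell without Mki67 held 269, 295 and 121 CPM. Cdk4 had medians of 1624 CPM with and 1852 CPM without Mki67 in AGM, 1709 and 1472 CPM in the yolk sac, 2010 and 1291 CPM in E12.5 and 1575 and 1404 CPM in E14.5 cells, so AGM ran opposite to the other groups.

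Cdkn1a, an inhibitor of the cycle, was not confined to cells without Mki67. In AGM it was read in 25 of 33 cells with Mki67 (75.8%) and in 6 of 15 without (40%), and after thinning in 21 of 29 and 5 of 14. The difference of shares was 35.8 points, beside a median of 7.88 points over all genes. That median includes genes that cannot differ, as given for Cdk6. It therefore does not set Cdkn1a apart from genes read about as often. AGM cells with an Mki67 read had more genes detected. Reads of Mki67 and of Cdkn1a were both more frequent in AGM cells of low number. The part of either was not tested. Cdkn1a medians in AGM were 30.4 and 0 CPM, and pooled levels were 49.0 and 38.1 CPM. All 3 E12.5 cells with Cdkn1b reads and all 3 such AGM cells had Mki67. Cdkn2d was read in 27 of 33 and 10 of 15 AGM cells, 7 of 7 and 5 of 9 E12.5 cells, but 5 of 9 and 5 of 7 E14.5 HSCs. Ccnd1 was read in 6 of 9 E14.5 HSCs with Mki67 and in 1 of 7 without, and in 8 of 33 and 3 of 15 AGM cells. Globin-rich cells were 3 of the 9 E14.5 HSCs with Mki67 and 1 of the 7 without. Those with Mki67 (cells 3, 13 and 16) were among the 6 with Ccnd1 reads. Of the 8 members, 1 was called in AGM (Ccnd1 higher, log2 ratio 1.03), where 35.7% of all genes were (27.1% higher, 8.62% lower), and it was lost without any 1 of 18 cells, with ratios down to 0.30 without cell 44, while without cell 26 it was 4.12. In E12.5, 4 were called (Cdkn1b higher, Ccnd1, Ccnd3 and Cdkn1a lower), where 39.2% of all genes were (26.8% higher, 12.4% lower). Of these, Ccnd1 was at 0 reads on both sides without cell 7, Cdkn1a moved from -4.39 to 0.37 without cell 14, and Ccnd3 was lost without cell 3 or cell 16 as given above. In E14.5, 1 was called (Ccnd2 lower), where 39.1% of all genes were (25.3% higher, 13.7% lower).

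**Figure D5:**
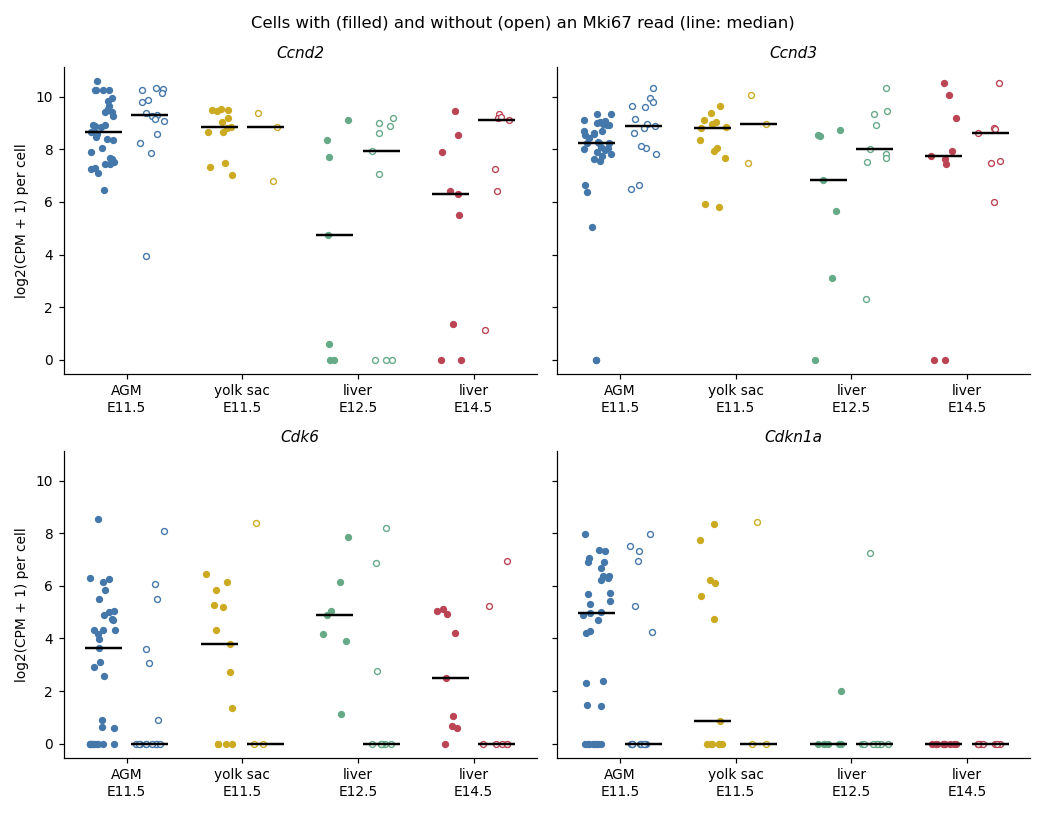
Cells with (filled) and without (open) an Mki67 read are set side by side for Ccnd2, Ccnd3, Cdk6 and Cdkn1a in the 4 groups, on a log2(CPM + 1) axis, with the median as a line. Ccnd3 medians are lower in filled cells in all 4 groups, with only 3 open cells in the yolk sac. Cdk6 is at 0 in most open cells.

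Genes whose levels across cells were most like those of each member were sought among 4817 genes read in at least 50% of cells, by Spearman's rho over 87 thinned cells after the group mean was taken off. Ccnd3 was most like Ctsb (0.48) and Wdr18 (0.45), Ccnd2 most like Guk1 (0.41) and Dkc1 (0.40), and Cdk4 most like Vcp (0.44) and Stat4 (0.43). Cdkn1a was most like Plec and R3hdm1 (both 0.46), Cdk6 most like Exoc4 (0.41) and Pdk1 (0.40), and Cdkn2d most like Tsc22d3 (0.38) and Clic4 (0.35). Such values are weak, are the highest of 4817 genes, and share depth and gene detection: Cdkn1a and the number of genes detected had a rho of 0.27. Ccnd1, Cdkn1b and Cdkn2c were read in too few cells for this.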

How the data were processed

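Single cells were sorted into a 96-well plate with 1 cell per well, and a SMART-Seq kit was used for the cDNA, per the labels. The authors deposited a table of raw counts (whole reads of each gene, 1 column per cell). The submitters' processing notes name FastQC, Trimmomatic 0.36, STAR, HTSeq and the build mm10. The annotation and the strand setting are not given in the sources used here. No molecular identifiers are named, so counts are reads, and intervals and floors cover counting error only.

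Rows with 1 symbol were summed, which turned 19949 rows into 19836 genes. Groups follow the labels. With no embryo named, each group was 1 sample and no test was made. Pooled CPM have exact Poisson intervals and shares exact Clopper-Pearson intervals, all at 95%. Ratios are log2 of pooled CPM with 1 CPM added, and a call needs 30 reads over all cells, a 2-fold difference and a mean log2(CPM + 1) over cells of equal sign. Coordinates and exon lengths are from GENCODE M21 (GRCm38, the same assembly as mm10). Doublets were not called, as wells were sorted for 1 cell each, and wells with many genes were not examined for a second cell.

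Named genes are the 9 members, Mki67, up to 3 called genes per pathway list and comparison, and the 2 genes most like each member. Some list genes were added for a role or as a contrast after their values were seen. The members and lists were chosen with earlier results of these data known. Alternatives were thinned reads, averaging CPM over cells, 10 CPM added, median-of-ratios scaling, dropping the read minimum, leaving out cells that stand apart, each cell left out in turn, and for Mki67 a minimum of 10 CPM or a split by Top2a. The calculation was tested on simulated counts. Simulated cells of a group shared the same gene proportions, so variation between cells of a group and its effect on calls were not covered. Python 3.11.15, numpy 2.4.6, pandas 2.3.3 and scipy 1.17.1 were used. The sum over 1 marker list is not reported here.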

Additional observations from a re-analysis of the deposited data

How the results depend on the processing

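The number of members called changed by over 1.5 times under these settings. Without the cells that stand apart it was 2 in place of 0 for yolk sac over AGM (Cdkn1a at 1.06 and Cdkn1b at 1.04). With 10 CPM added it was 2 in place of 4 for E12.5 over AGM, for E14.5 over E12.5 and for the Mki67 split of E12.5 liver, since genes at low CPM then differ less by construction. For the Mki67 split of AGM it was 0 in place of 1 when CPM was averaged over cells, with thinned cells, median-of-ratios scaling and 10 CPM added. For the Mki67 split of E14.5 liver it was 3 in place of 1 with thinned cells and with a Top2a split. The cause was not tested where none is named.

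Leaving out 1 cell at a time, the members called ranged from 0 to 0 for yolk sac over AGM, 4 to 5 for E12.5 over AGM, 2 to 4 for E14.5 over AGM, 3 to 5 for E14.5 over E12.5, and 0 to 1, 3 to 5 and 0 to 2 for the Mki67 splits of AGM, E12.5 and E14.5 liver. Of 824 alternatives of the 17 called member ratios, 2 reversed. In the Mki67 split of E12.5 liver, Cdkn1a ran from -4.75 to 0.37 over the cells left out (0.37 without cell 14), and Ccnd1 was 2.30 with a Top2a split. AGM cells 1 to 16 only, chosen after seeing the data, gave 0, 4 and 2 members called for yolk sac, E12.5 and E14.5 over AGM.

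Of 99 alternatives of 36 shares, 7 lay outside the main exact interval. Cdk4 in E12.5 was read in 100% of cells when thinned or without cell 8. At 10 CPM or more, Cdk6 in AGM was at 43.8% and Cdkn1b at 0% in AGM and yolk sac. Without the cells that stand apart, Cdkn1a was at 87.5% in yolk sac and Cdkn2c at 0% in E14.5. No paired analysis was possible because cell numbers name no shared animal and the results come from no test. The Mki67 split of yolk sac gave no count of calls, having 3 cells without a read. The make-up of D cyclin reads and the counts over pathway lists without the cells that stand apart, also chosen after seeing the data, stand beside those results.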
